A study of Rattus norvegicus with 24 samples.

Results

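Oxidative phosphorylation genes were followed in the brain of rats given MK-801. Members were taken by name, as the non-control probes whose gene name in the scanner files began with Nduf, Sdh followed by a to d, Uqcr, Cox4 to Cox8 or Atp5. This gave 81 probes of 71 genes out of 35524 genes or transcripts on the array, and the rule used no measured value. By complex, 32 genes were named for complex I, 4 for complex II, 5 for complex III, 16 for complex IV and 14 for complex V. Of the 71 genes, 66 encode subunits. The other 5 carry such a name without encoding one: the complex I assembly factor Ndufaf1, the supercomplex factor Cox7a2l, the pseudogene Cox6c-ps1, the endoplasmic reticulum gene Emc8 and Dmac2l, also known as ATP synthase coupling factor B. Probes well above background in both dyes on at least 12 of the 24 arrays were kept, which left 79 probes, 70 genes and 65 subunits. The gene that was lost, Cox6b1, had a probe above background on 5 arrays, and the files describe its transcript as similar to uroplakin Ia, so name and description disagree. None of 26 names of mitochondrially encoded genes was found on the array, so all values below are of genes in nuclear DNA.

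Oxidative phosphorylation is the last stage of respiration. Complex I (NADH dehydrogenase) and complex II (succinate dehydrogenase, also an enzyme of the citric acid cycle) pass electrons to ubiquinone, complex III passes them to cytochrome c, and complex IV (cytochrome c oxidase) passes them to oxygen. Complexes I, III and IV pump protons, and complex V (ATP synthase) uses the gradient to make ATP. Neurons depend on this ATP to restore ion gradients after synaptic activity. MK-801 blocks the open channel of the NMDA receptor, a glutamate receptor of excitatory synapses.

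All RNA came from male Wistar rats aged 10 weeks, and the 9 rats were divided into 3 given saline and 6 given MK-801. The low dose was 0.08 mg/kg and the high dose 0.16 mg/kg, both injected into the abdomen, with brains taken 40 min later. The tissues were cerebral cortex, hippocampus, amygdala, hypothalamus, midbrain and ventral striatum. RNA of treated and of saline rats was hybridised together on 2-colour arrays, 1 dye swap for each dose in each region and 12 in all. No label ties an array to a rat or says whether rats were pooled. A dye swap was therefore taken as a single value, and p-values measure the spread between the 6 regional values and not between animals. The 6 regions outnumbered the 3 saline rats, so regional values shared animals, are not independent, and can give p-values that are too small. Both doses of a region were compared with saline RNA of that region. The 4 arrays of a region lay on 1 slide, so region, slide and RNA preparation cannot be told apart. In bulk tissue, fewer cells of a type and less RNA per cell cannot be told apart either.

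Between 55.2% and 78.5% of probes were well above background on an array. No spot of a member was saturated, but 39 of the 81 member probes carried the scanner's outlier flag on at least 1 array. Flags took 4.91% of the members' array values against 0.871% over all probes, and flagged spots were left out. Markers of the dissected regions had their highest saline level in the labelled region for 6 of 7 midbrain genes, 11 of 11 ventral striatum genes, 4 of 5 hippocampus genes, 3 of 7 cerebral cortex genes, 3 of 10 hypothalamus genes and 2 of 7 amygdala genes.

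The array read each gene through 60-base probes, and 4 are shown because the whole result for a gene rests on such an oligonucleotide. Dmac2l, Cox6a1 and Atp5me are the members at an unadjusted p under 0.05 over both doses, and Ndufa12 is the member with the lowest adjusted p between doses. Positions are on rat build rn3 and strands are as the files give them: Dmac2l at chr6:91801890-91801949 (plus strand), Ndufa12 at chr7:31396356-31396415 (plus), Cox6a1 at chr12:42396413-42396472 (plus) and Atp5me at chr14:1868395-1868454 (plus).
Dmac2l: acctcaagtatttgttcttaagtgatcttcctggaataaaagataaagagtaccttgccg
Ndufa12: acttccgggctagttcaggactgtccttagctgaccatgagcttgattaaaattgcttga
Cox6a1: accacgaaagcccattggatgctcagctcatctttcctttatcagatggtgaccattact
Atp5me: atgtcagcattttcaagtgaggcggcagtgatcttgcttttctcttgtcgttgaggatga
Exon and untranslated region annotation of these positions was not analysed here. The Dmac2l probe is the poorest of the 4 in G and C, at 36.7% against 45% in each of the others.

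In saline RNA the respiratory chain genes were highest in midbrain and hypothalamus and lowest in hippocampus and amygdala. The level used here is the log2 intensity of the saline dye minus the mean of the same probe over the 6 regions, so it compares regions within a gene and never gene with gene. The median over the gene means of the 70 members was 0.17 ± 0.042 in midbrain and 0.13 ± 0.061 in hypothalamus. For saline levels of a group of genes, ± is the SD of 4 medians, 1 taken in each saline channel. These channel medians need not centre on the median of the gene means. For saline levels of single genes, ± is the SD over the channels. It was -0.026 ± 0.046 in cerebral cortex and -0.044 ± 0.081 in ventral striatum, 2 neighbours in the order whose channel medians overlapped. It was -0.12 ± 0.063 in amygdala and -0.13 ± 0.090 in hippocampus, whose channel medians also overlapped. The medians of single channels ran from 0.19 to 0.28 in midbrain, all above 0.17, and from 0.094 to 0.23 in hypothalamus. The hippocampus channels ran from -0.13 to 0.067, so its low place was not shared by every channel, and without array 3 its median was -0.062. The level was highest in midbrain for 31 of 70 members (44.3%, against 18.9% of all genes) and highest in hypothalamus for 22 (31.4% against 19.0%). It was lowest in hippocampus for 29 (41.4% against 18.9%) and lowest in amygdala for 18 (25.7% against 16.3%). These are descriptions with no test, since each region lay on 1 slide. With median scaling or scanner signals several of these medians moved, and that of ventral striatum changed sign, as given below. Related gene lists were partly alike. In midbrain, hypothalamus, amygdala and hippocampus, medians were 0.18, 0.16, -0.11 and -0.13 for 19 respiratory chain assembly factors. They were 0.15, 0.14, -0.11 and -0.19 for 15 electron carriers and exchangers. For 22 citric acid cycle genes they were 0.19, 0.24, -0.092 and -0.13, with ventral striatum lowest (-0.15). Glycolysis genes stood at 0.10, 0.12, -0.11 and -0.036, and regulators of biogenesis differed (0.093, -0.016, -0.11 and 0.023).

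**Figure D1:**
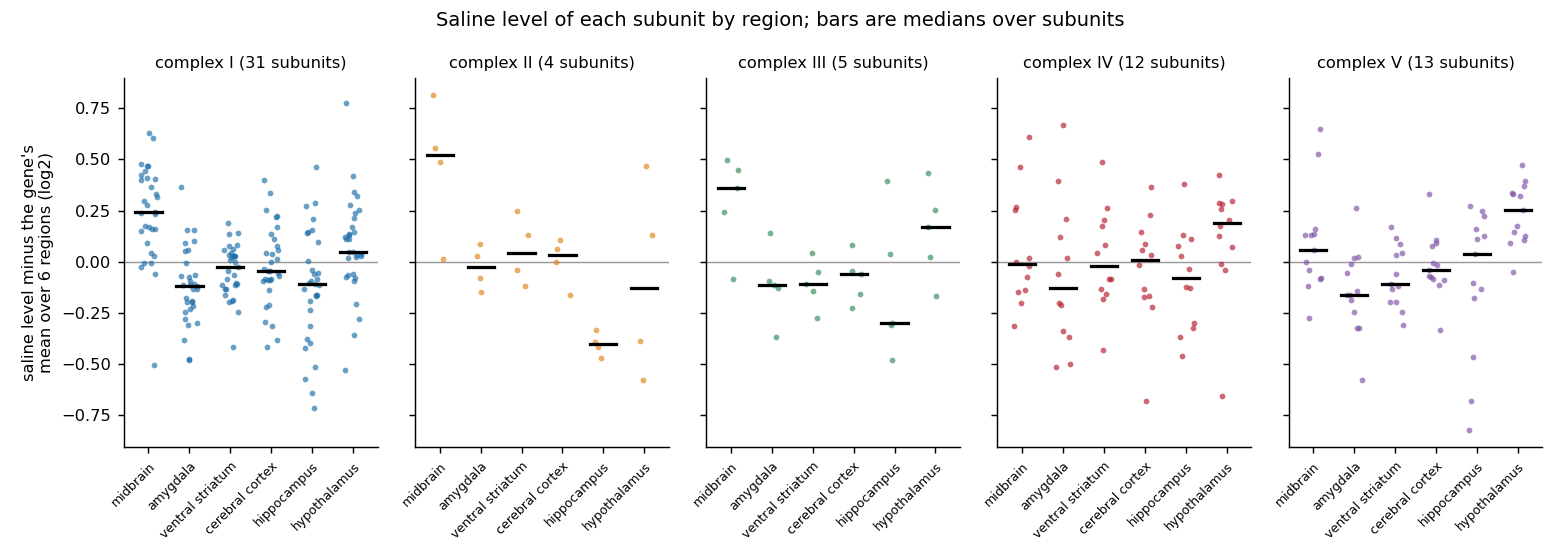
The vertical axis is the saline log2 level of each of the 65 subunits minus that gene's mean over 6 regions, by complex and region; each point is 1 subunit (mean of up to 4 saline channels) and each black bar is the median over subunits. Medians of complexes I, II and III are highest in midbrain, at 0.24, 0.52 and 0.36, while those of complexes IV and V are highest in hypothalamus, at 0.19 and 0.25.

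The complexes differed in which of these regions led. For complex I, which oxidises NADH, the midbrain median was 0.24 ± 0.042, with 17 of 31 subunits highest there and 26 of 31 above their own mean. Its hypothalamus median was 0.048 ± 0.079. Complex II had a midbrain median of 0.52 ± 0.22 and a hippocampus median of -0.40 ± 0.55 over 4 genes, and complex III had 0.36 ± 0.12 and -0.30 ± 0.42 over 5 genes. For both of these small complexes the hippocampus channels spread too widely to place that region. Complex V, which makes the ATP, was led by hypothalamus, where its median was 0.25 ± 0.026, with 8 of 13 subunits highest there and 12 of 13 above their own mean, and its midbrain median was 0.055 ± 0.074. Its channel medians ran from 0.19 to 0.26 in hypothalamus and from -0.097 to 0.051 in midbrain, where all lay below 0.055. The 8 widely expressed subunits of complex IV also had their highest median in hypothalamus (0.20 ± 0.22, 5 of 8 highest there), with midbrain at -0.0033 ± 0.17, and the channel medians of these regions overlapped.

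Single members were checked for separation between the highest and lowest regions. Of the 40 members with all 8 channels, 10 had every midbrain channel above every hippocampus channel, against 16.2% of all genes, and 3 had the reverse, against 16.5%. Hypothalamus was above hippocampus in this way for 3 of 45 members (2214 of 21957 genes), and the reverse held for 0 (2759 of 21957). Midbrain was above amygdala for 11 of 47 members (4032 of 22107 genes), and the reverse held for 1 (3683 of 22107). The 10 with midbrain above hippocampus are named here after their values were seen, and none was a complex II gene or a complex V subunit. They were the complex I subunits Ndufa5, Ndufb5, Ndufb9, Ndufs1 and Ndufv2, the Rieske iron-sulphur protein Uqcrfs1 of complex III, the complex IV genes Cox5a, Cox8b and Cox6c-ps1, and Dmac2l. Uqcrfs1 stood at 0.45 ± 0.11 in midbrain, 0.17 ± 0.11 in hypothalamus, -0.053 ± 0.11 in ventral striatum, -0.095 ± 0.12 in amygdala, -0.16 ± 0.20 in cerebral cortex and -0.31 ± 0.35 in hippocampus. Midbrain stood above the next region by more than the SD of either, while the lower 4 overlapped. Ndufv2, an iron-sulphur core subunit, stood at 0.36 ± 0.12 in midbrain and -0.16 ± 0.063 in hippocampus.

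Ndufv1, the core subunit that binds NADH, stood low in midbrain and high in hippocampus, while its high hypothalamus and low amygdala were as in the median of the members. It was at 0.78 ± 0.14 in hypothalamus, 0.47 ± 0.20 in hippocampus, -0.068 ± 0.21 in cerebral cortex, -0.19 ± 0.25 in ventral striatum, -0.48 ± 0.22 in amygdala and -0.51 ± 0.36 in midbrain. All 4 hippocampus channels were above all 4 midbrain channels, also for Atp5f1d (delta subunit of the ATP synthase head; difference 0.39) and Cox4i2 (an isoform of the complex IV subunit 4; difference 0.58). Ndufv1 and Ndufv2 form the same module of complex I, yet the Ndufv2 probe was highest in midbrain, where the Ndufv1 probe was low, level with amygdala within the spread.

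The range over the 6 regions had a median of 0.658 over the members and 0.762 over all genes. Within each complex the widest and narrowest members were as follows. In complex I, Ndufc2, a membrane arm subunit, spanned 1.32, Ndufv1 spanned 1.28 and Ndufa2 spanned 0.268. The other Ndufa2 probe ran wider, from -0.34 in amygdala to 0.25 in midbrain. For the Ndufc2 probe used, the channels of midbrain (0.48 to 0.67, 3 channels), amygdala (0.26 to 0.41) and hippocampus (-1.02 to -0.20) did not overlap. Ventral striatum, with an SD of 0.74, ran from -1.10 to 0.44 and cannot be placed. The other Ndufc2 probe placed amygdala at -0.079, below ventral striatum (0.34), cerebral cortex (0.35) and midbrain (0.34), with hippocampus again lowest (-0.59). In complex II, the membrane anchors Sdhc and Sdhd spanned 1.28 and 1.13 and the iron-sulphur subunit Sdhb spanned 0.818. The top of the Sdhc range, midbrain at 0.81, was 1 channel. In complex III, the hinge protein Uqcrh spanned 0.912, the core protein Uqcrc2 spanned 0.799 and the ubiquinone-binding protein Uqcrb spanned 0.47. Other Uqcrb probes ran wider, from -0.50 in hippocampus to 0.38 in midbrain and from -0.20 in ventral striatum to 0.50 in midbrain. Uqcrc2 in midbrain was at 1.11 in the Cy3 channels and at -0.013 in the Cy5 channels, so its place depended on the dye. In complex IV, Cox8b spanned 1.35, Cox5b spanned 1.15 and Cox7a2 spanned 0.28. The top of the Cox5b range, ventral striatum at 0.49, was also 1 channel. In complex V, the ring subunit Atp5mc3 spanned 1.3, the stalk subunit Atp5pd spanned 1.11 and the membrane subunit Atp5me spanned 0.27. The top of the Atp5pd range, midbrain at 0.65, was 1 channel. At the bottom of the Atp5mc3 range, the hippocampus channels ran from -1.93 to 0.072. In all, 5 members had a region of 1 channel. The SD over the 4 saline channels had a median of 0.249 over members and 0.213 over all genes.

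The regional profiles of members were compared pair by pair. Over the 6 regions the median correlation of 2 members was 0.27, with 69.1% of pairs above 0, against 0.00047 and 50.03% for all genes. It was 0.38 within complex I, 0.40 within complex III, 0.27 within complex V and 0.05 within the widely expressed complex IV subunits. These correlations run over 6 points that share arrays and normalization, and are given as a description. Cell type markers varied over the same regions. The median of 15 oligodendrocyte markers was 1.02 in midbrain and 0.79 in hypothalamus and -1.21 in amygdala, and that of 14 neuron markers was 0.22, 0.20 and -0.16 in those regions. Hippocampus was at -0.18 for the former and 0.10 for the latter, and the 12 astrocyte markers stood at 0.35 in midbrain and 0.34 in amygdala. The part of cell composition in the members' profile was not tested.

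After MK-801 the subunits of the respiratory chain stayed close to saline. No subunit of any complex passed the threshold of adjusted p under 0.05 at either dose, over both doses or between the doses (limma, with Benjamini-Hochberg adjustment over all genes tested). The single member that passed was Dmac2l, which is no subunit and which fell. Over both doses 1 of 62 tested members was called, against 2.63% of all 23087 genes tested. At the high dose 0 of 69 were called (background 2.11%), at the low dose 1 of 69 (2.61%), and 0 of 62 for the high minus the low dose (1.52%). At an unadjusted p under 0.05 the counts were 3 of 62 (background 13.7%), 5 of 69 (12%), 7 of 69 (13.3%) and 5 of 62 (10.8%). Each of these 4 shares was below that of all genes. Among members with all 6 regional values, the sign was the same in every region for 2 of 34 over both doses (background 9.25%), 1 of 42 at the high dose (8.08%), 3 of 44 at the low dose (9.13%) and 1 of 34 for the difference between doses (7.06%). With an array number left out, so that a dose was read in 1 dye orientation alone, 17 to 18 members were called over both doses (15.9% to 20.4% of all genes), 0 to 30 at the high dose (2.11% to 32.2%), 1 to 31 at the low dose (2.61% to 35.6%) and 19 to 28 between doses (23.1% to 32%). The ratios here are MK-801 over saline on the log2 scale, averaged over both dye orientations. In all, 8 members had too few regional values to be tested over both doses, and a value needed at least 4 regions.

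The lack of calls came with narrow intervals. The 95% interval of the mean ratio lay inside ±0.2 for 62 of 62 members over both doses, where 97.3% of all genes had such an interval. This held for 68 of 69 at the high dose (95.3% of all genes), 68 of 69 at the low dose (95.3%) and 60 of 62 for the difference between doses (93.4%). Single regional values passed 0.2 in size for 2 of 380 member values at the high dose (0.526%, against 4.23% of all genes) and 6 of 382 at the low dose (1.57% against 4.56%). Both at the high dose were of Cox8b. At the low dose they were Dmac2l in midbrain (-0.29) and cerebral cortex (-0.22), the complex I core subunit Ndufs8 in amygdala (-0.26), Cox6a1 in hippocampus (-0.27), the complex I core subunit Ndufs1 in hippocampus (0.22) and Uqcrc2 in hypothalamus (0.21).

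**Figure D2:**
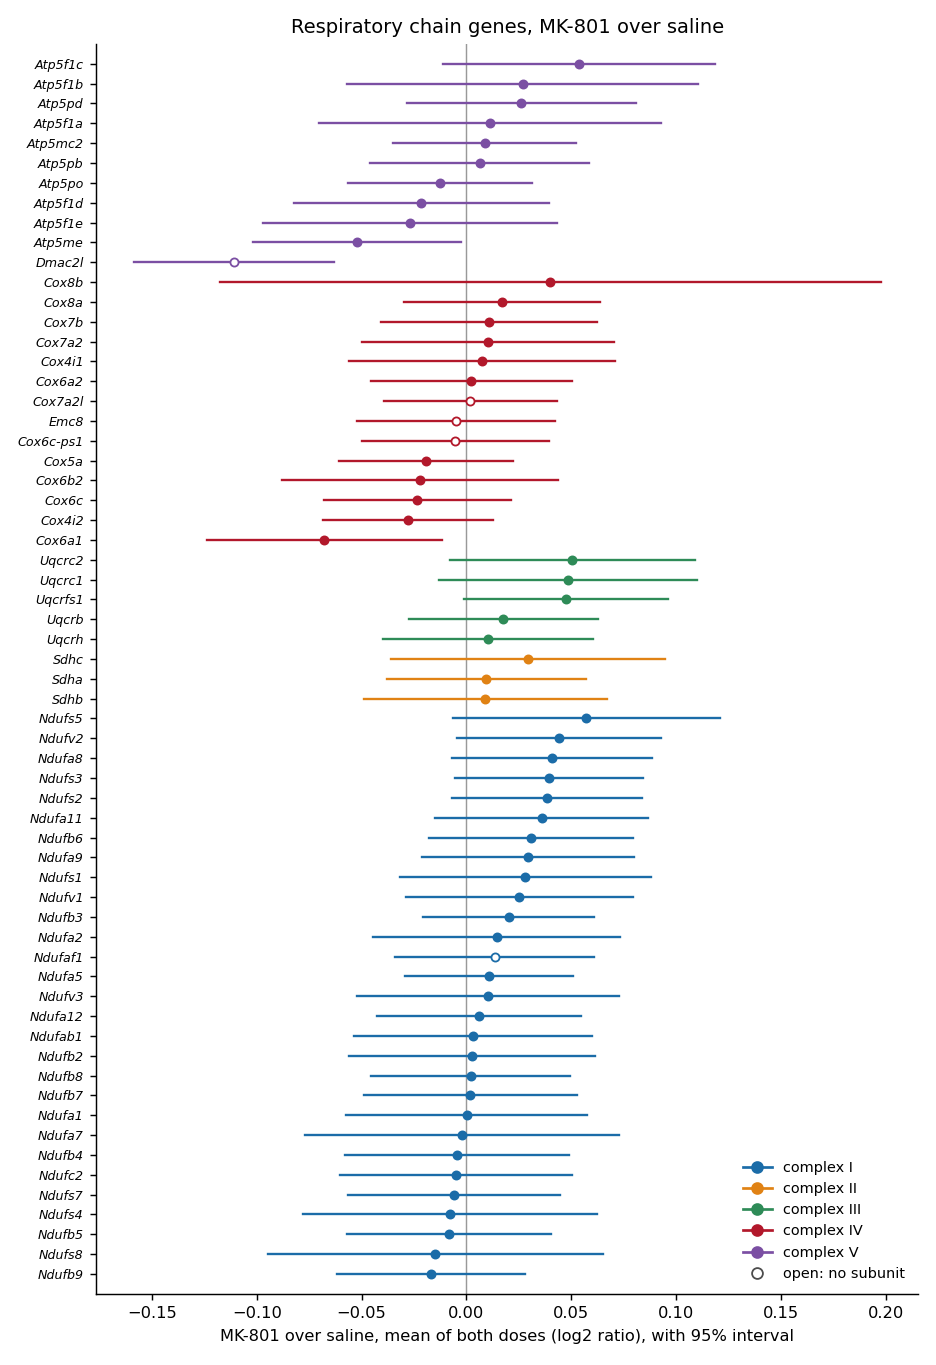
The horizontal axis is MK-801 over saline (log2), averaged over both doses, and each row is 1 of the 62 tested members, with a point for the mean over 4 to 6 regions and a line for its 95% interval; colours are complexes and open points are genes that are no subunit. All intervals lie inside ±0.2, and that of Dmac2l, at -0.16 to -0.063, lies below 0.

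The centre of the members lay slightly above that of all genes. The median ratio was 0.0089 over both doses (all genes 0.00038), 0.012 at the high dose (all genes -0.0012) and 0.0082 at the low dose (all genes 0.0019). Above 0 were 42 of 62 members over both doses (67.7%, all genes 50.5%), 44 of 69 at the high dose (63.8%, all genes 48.6%) and 44 of 69 at the low dose (63.8%, all genes 52.0%). The sign of the median changed under other normalization: without loess it was -0.014 over both doses (all genes -0.011) and -0.048 at the high dose (all genes -0.027), while at the low dose it stayed above 0, at 0.0095 (all genes 0.0030). By region at the high dose, the median of members ran from -0.019 in midbrain to 0.028 in hippocampus, and at the low dose from -0.0039 in amygdala to 0.028 in cerebral cortex. No region stood out at both doses.

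Complex I held 28 tested subunits over both doses, of which 20 were above 0, with a median of 0.0081 and none called. Its 7 core subunits, which carry electrons from NADH to ubiquinone, had a median of 0.028, and the 21 accessory subunits had a median of 0.0033. The member closest to a call between doses was Ndufa12, an accessory subunit of the matrix arm. Its ratios at the high dose were -0.15 in midbrain, 0.013 in amygdala, -0.081 in ventral striatum, -0.10 in cerebral cortex, -0.098 in hippocampus and -0.061 in hypothalamus. At the low dose they were 0.079, 0.068, 0.042, 0.088 and 0.11 from amygdala to hypothalamus in the same order, and midbrain had no value because 1 array of the dye swap had none. The low dose was therefore above the high dose in 5 of 5 regions, without overlap of the 2 sets of values. The difference of high minus low was -0.14 ± 0.047 (SD, n = 5 regions; 95% interval -0.22 to -0.069; limma adjusted p = 0.0729), which missed the threshold. It passed with probes above background on all 24 arrays, with a trended and robust variance model, and with flagged spots kept. It also passed with array number 1 or 4 left out, but then 1 dose was read in 1 dye orientation, and 25.1% and 23.1% of all genes were called. Against saline, the high dose mean was -0.080 ± 0.054 (adjusted p = 0.218) and the low dose mean was 0.078 ± 0.026 (adjusted p = 0.211).

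Other members of complex I differed less. Ndufa11, an accessory subunit of the membrane arm, had the highest mean of the complex at the high dose, 0.071 ± 0.067 (adjusted p = 0.334), and a mean of 0.00044 ± 0.050 at the low dose. High minus low was above 0 in 6 of 6 regions for this gene, with a mean of 0.071 and an adjusted p of 0.414. Ndufab1, the mitochondrial acyl carrier protein, had the lowest mean of the complex at the low dose, -0.035 ± 0.030 (adjusted p = 0.599). Ndufs3, a core subunit near the ubiquinone site, was at 0.057 ± 0.038 at the low dose (adjusted p = 0.342) and at 0.021 ± 0.054 at the high dose. Ndufv2 was above 0 in 6 of 6 regions at the low dose, with a mean of 0.036 (adjusted p = 0.60). The assembly factor Ndufaf1 was at 0.013 over both doses.

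Complex II is the smallest of the complexes and has no mitochondrially encoded subunit. The flavoprotein Sdha was at 0.0095 ± 0.024 over both doses and the iron-sulphur subunit Sdhb at 0.0090 ± 0.059, each over 5 regions. Of the membrane anchors, Sdhc was at 0.030 ± 0.058 over 4 regions, and Sdhd had values for a test only at the low dose, 0.067 ± 0.056 over 4 regions (adjusted p = 0.457). No member of the complex passed an unadjusted p of 0.05.

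Complex III had the highest median of the complexes, 0.047 over both doses, and its 5 subunits were above 0 over both doses, at the high dose and at the low dose, although without loess Uqcrh was at -0.040 and Uqcrb at -0.014 over both doses. None of the 5 passed the adjusted threshold in these comparisons. The 2 dye orientations disagreed in sign for all 5, as they did for most members. With saline in Cy3 and in Cy5, the single arrays averaged -0.33 and 0.42 for Uqcrc1 and -0.011 and 0.12 for Uqcrc2. They averaged 0.18 and -0.082 for Uqcrfs1, 0.24 and -0.22 for Uqcrh, and 0.13 and -0.096 for Uqcrb. Uqcrfs1, the Rieske protein, had low dose ratios of -0.0091 in midbrain, 0.12 in amygdala, 0.046 in ventral striatum, 0.11 in cerebral cortex, 0.059 in hippocampus and 0.097 in hypothalamus, with a mean of 0.070 ± 0.049 (adjusted p = 0.241). Its high dose mean was 0.024 ± 0.058 (adjusted p = 0.800). Uqcrc2, a core protein, had low dose ratios of 0.018 in midbrain, 0.014 in amygdala, 0.056 in ventral striatum, 0.14 in cerebral cortex, 0.025 in hippocampus and 0.21 in hypothalamus, with a mean of 0.076 ± 0.079 (adjusted p = 0.302). All 6 values were above 0, and the hypothalamus value stood highest. The high dose mean of Uqcrc2 was 0.015 ± 0.069 over 5 regions. The other core protein, Uqcrc1, was at 0.049 ± 0.079 over both doses (adjusted p = 0.503), Uqcrb at 0.018 and Uqcrh at 0.010.

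**Figure D3:**
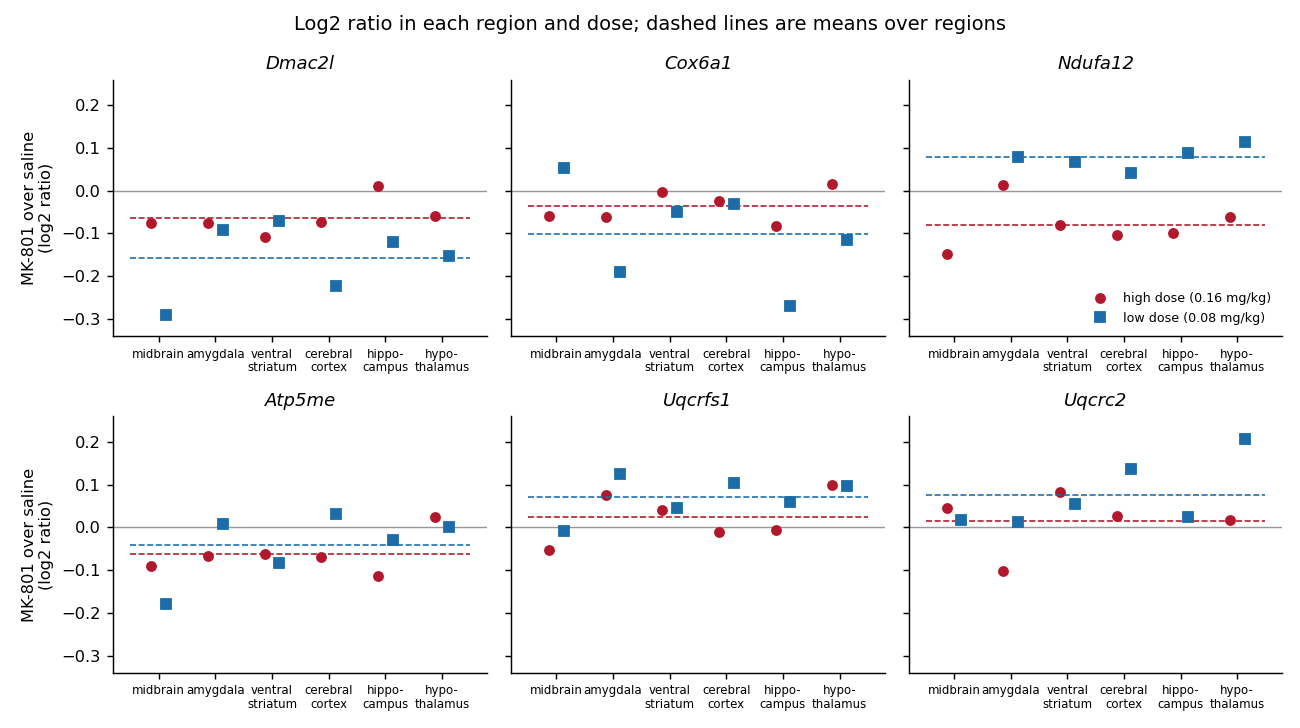
The vertical axis is MK-801 over saline (log2) in each region, shown as red circles for 0.16 mg/kg and blue squares for 0.08 mg/kg, with dashed lines for the mean over regions, for 6 members. The low dose values of Dmac2l lie below 0 in all 6 regions, from -0.29 to -0.071, and the values of Ndufa12 separate by dose.

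Complex IV held 11 tested subunits over both doses with a median of 0.0023. Cox6a1, the widely expressed form of subunit 6a, was lower in 6 of 6 regions over both doses but was not called. Its low dose ratios were 0.053 in midbrain, -0.19 in amygdala, -0.049 in ventral striatum, -0.030 in cerebral cortex, -0.27 in hippocampus and -0.12 in hypothalamus. Its high dose ratios ran from -0.082 to 0.017 and were closer to 0 in most regions. The mean was -0.068 ± 0.068 over both doses (adjusted p = 0.257), -0.10 at the low dose (adjusted p = 0.258) and -0.035 at the high dose (adjusted p = 0.642). The dyes disagreed for this probe, as they did for most members. With saline in Cy3 the single arrays averaged 0.30 (11 of 12 above 0), and with saline in Cy5 they averaged -0.43 (12 of 12 below 0). Cox4i2 was lower in 6 of 6 regions at the high dose, between -0.10 and -0.019, with a mean of -0.058 ± 0.032 (adjusted p = 0.348), and at the low dose its mean was 0.0024. Cox8a, the widely expressed form of subunit 8, had a low dose mean of 0.032 (adjusted p = 0.677).

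Cox8b, the form of subunit 8 known from heart and skeletal muscle, was the exception in size. The high dose ratio was 1.01 in amygdala and -0.46 in hypothalamus, and it was -0.024 in midbrain, 0.026 in ventral striatum, -0.031 in cerebral cortex and -0.11 in hippocampus. At the low dose the 6 values ran from -0.13 in hippocampus to 0.092 in midbrain, with 0.027 in amygdala. The values were therefore large in 2 regions, at 1 dose and in opposite directions, and the high dose mean was 0.070 ± 0.49 (adjusted p = 0.897). Saline levels of Cox8b were 0.67 ± 0.34 in amygdala, 0.61 ± 0.15 in midbrain, 0.20 ± 0.11 in hypothalamus, -0.37 ± 0.12 in hippocampus, -0.43 ± 0.17 in ventral striatum and -0.68 ± 0.16 in cerebral cortex. Amygdala and midbrain did not differ beyond their spread.

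Markers of the choroid plexus, the epithelium that makes cerebrospinal fluid and lies against several of these regions, were compared with Cox8b region by region. Of 10 such markers 8 were measured. In amygdala at the high dose, 8 of 8 were above 0, between 0.86 and 1.61. In hypothalamus 0 of the 6 with a value were above 0, and they ran from -2.0 to -0.38. In hippocampus 0 of 8 were above 0, from -2.62 to -0.13, where Cox8b was at -0.11. At the low dose the 8 markers were between 0.12 and 0.51 in amygdala. In saline RNA, 7 of 8 were above their own mean in amygdala (median 0.94) and 8 of 8 in hypothalamus (median 0.78). In saline midbrain, where Cox8b was at 0.61, 2 of 8 were above their mean (median -0.60). The part of choroid plexus tissue in the Cox8b values was not tested.

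**Figure D4:**
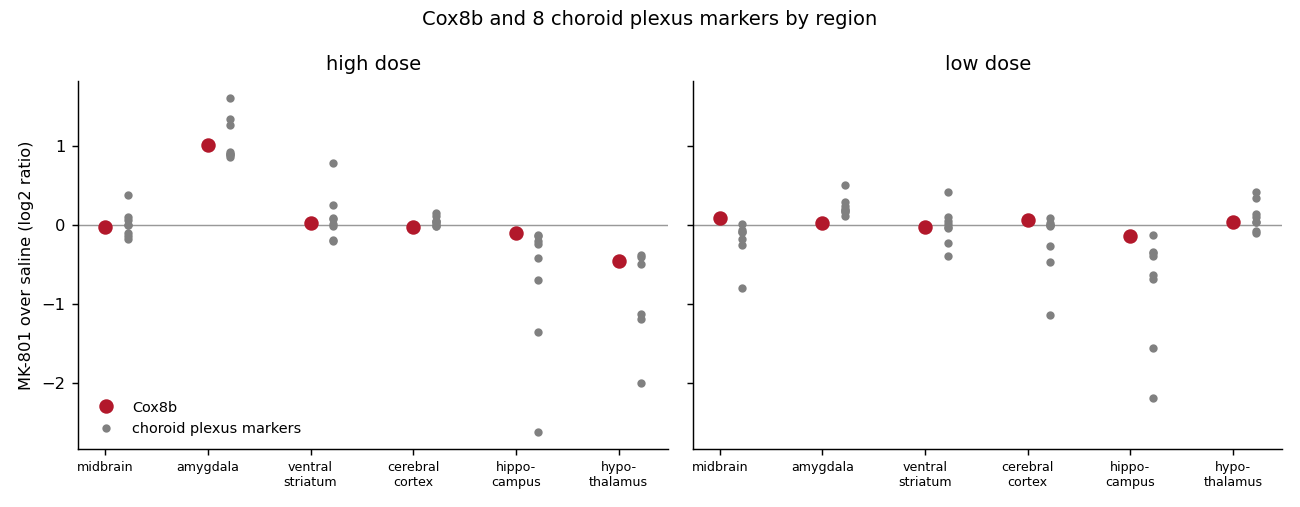
The vertical axis is MK-801 over saline (log2) by region at the high dose (left) and the low dose (right), with Cox8b as large red points and the 8 measured choroid plexus markers as small grey points. At the high dose Cox8b and the markers are all above 0 in amygdala and all below 0 in hypothalamus and hippocampus.

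The probe that carried the Cox8b values and the 2 others under the same name are shown because they lie on opposite strands of rn3 chromosome 1. The probe used, from the Cox8b messenger RNA, is at chr1:201207352-201207411 on the minus strand as given. Another, from an expressed sequence tag of rat heart, is at chr1:201207391-201207450 on the plus strand. Capitals mark the 21 bases of each that are the reverse complement of the other.
Cox8b used: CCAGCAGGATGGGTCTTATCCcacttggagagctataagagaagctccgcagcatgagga
Cox8b other strand: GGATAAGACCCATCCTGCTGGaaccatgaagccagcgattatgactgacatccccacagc
The probe used was well above background on 24 arrays, and this other probe on 1 array. The remaining probe, also on the plus strand, was above background on 20 arrays. In amygdala at the high dose the plus strand probes read 0.10 and 0.062 where the minus strand probe read 1.01. The amygdala value was thus seen with 1 of the 3 probes, the only probe on the minus strand. On build GRCr8 the Cox8b promoter is also given on the minus strand of chromosome 1. The plus strand probes therefore need not read the Cox8b messenger RNA, and transcription of the plus strand was not analysed here.

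Complex V held 10 tested subunits over both doses with a median of 0.0076, and none was called. Atp5me, subunit e of the membrane part, which takes part in joining synthases into dimers, had high dose ratios of -0.091 in midbrain, -0.068 in amygdala, -0.063 in ventral striatum, -0.069 in cerebral cortex, -0.11 in hippocampus and 0.024 in hypothalamus. The hypothalamus value lay apart from the other 5. The mean was -0.063 ± 0.047 at the high dose (adjusted p = 0.341) and -0.052 ± 0.052 over both doses (adjusted p = 0.337). As for Cox6a1 and most members, the dyes disagreed. With saline in Cy3 all 12 arrays were above 0 (mean 0.27), and with saline in Cy5 all 12 were below 0 (mean -0.38). The ring subunit Atp5mc3 was at 0.075 ± 0.034 over 4 regions at the low dose (adjusted p = 0.345), and Atp5f1b, the catalytic beta subunit, was at 0.047 ± 0.10 at the high dose (adjusted p = 0.702) and 0.030 ± 0.13 at the low dose.

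Dmac2l was the only member called in the 4 comparisons as fitted. At the low dose its ratios were -0.29 in midbrain, -0.093 in amygdala, -0.071 in ventral striatum, -0.22 in cerebral cortex, -0.12 in hippocampus and -0.15 in hypothalamus. Those of the high dose were -0.076, -0.076, -0.11, -0.074, 0.011 and -0.060 in the same order. All 6 regions were below 0 at the low dose and 5 of 6 at the high dose, with midbrain and cerebral cortex lowest at the low dose. The mean fell by 0.16 at the low dose (SD 0.084, n = 6; 95% interval -0.23 to -0.089; adjusted p = 0.0195) and by 0.11 over both doses (SD 0.047; 95% interval -0.16 to -0.063; adjusted p = 0.0209). The high dose mean was -0.064 ± 0.040 (adjusted p = 0.318), and the difference between doses, 0.095, was not called (adjusted p = 0.360). In saline RNA, Dmac2l stood highest in midbrain (0.43 ± 0.084) and lowest in hippocampus (-0.56 ± 0.84).

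The Dmac2l call was made on the mean of both dye orientations, and these differed in sign, as they did for most members. With saline in Cy5, 12 of 12 arrays were below 0, between -0.51 and -0.14 with a mean of -0.30. With saline in Cy3, 9 of 12 arrays were above 0, with a mean of 0.079. The low dose mean was -0.35 from the arrays with saline in Cy5 and 0.030 from those with saline in Cy3, so the sign was not the same in both dyes. The call over both doses was lost without midbrain (adjusted p = 0.0571), ventral striatum (0.0531), cerebral cortex (0.0907) or hypothalamus (0.0542), and that at the low dose without midbrain (0.0580), cerebral cortex (0.0758) or hypothalamus (0.0613). The size of the dye effect had a median of 0.10 over members and 0.073 over all genes.

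Other genes of the same metabolism were read from lists. Of 27 respiratory chain assembly factors 19 were tested over both doses and 1 was called. Tmem126b, a complex I assembly factor, rose by 0.10 ± 0.045 over both doses, higher in 6 of 6 regions (adjusted p = 0.0288), and its adjusted p was 0.0714 at the high dose and 0.0873 at the low dose. Of 27 genes of the citric acid cycle and pyruvate oxidation 22 were tested and 0 called, with Pdk1, a kinase that inhibits pyruvate dehydrogenase, at 0.074 (6 of 6 regions higher; adjusted p = 0.165) and Suclg1, a subunit of succinyl-CoA ligase, at -0.058 (6 of 6 lower; adjusted p = 0.207). Of 19 electron carriers and exchangers 13 were tested and 0 called, with the uncoupling protein Ucp2 at 0.076 (6 of 6 higher; adjusted p = 0.119). None of 18 regulators of mitochondrial biogenesis and none of 15 glycolysis genes tested over both doses was called, and 0 of these passed an unadjusted p of 0.05 either. The numbers at an unadjusted p under 0.05 over both doses were 4 assembly factors, 3 citric acid cycle genes and 1 carrier. The background over both doses was 2.63% of all genes called and 13.7% at the unadjusted threshold. At the high dose and at the low dose none of the 5 lists had a member called by limma after adjustment. The unadjusted threshold was passed there by 3 and 4 assembly factors, 1 and 3 citric acid cycle genes, 0 and 1 carriers, 0 and 2 regulators and 0 and 1 glycolysis genes, where all genes passed it in 12% and 13.3%.

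Where a member had several probes past the filter, their mean ratios over the regions they shared and both doses lay within 0.034 of each other. Single regional values could lie further apart, as for the Cox8b probes of opposite strands in amygdala at the high dose (1.01 against 0.062). The probes of Ndufs8 are shown as an example of oligonucleotides that overlap and so are not independent. They lie at chr1:206589326-206589824 and chr1:206589352-206589850 of rn3 on the minus strand as given, each over a span longer than the 60 bases of the probe, and capitals mark the 34 bases they share.
Ndufs8 used: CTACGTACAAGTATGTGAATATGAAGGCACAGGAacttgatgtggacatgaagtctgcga
Ndufs8 second: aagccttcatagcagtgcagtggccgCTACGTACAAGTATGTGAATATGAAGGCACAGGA
Saline levels were less alike than ratios. The saline profiles of probes of 1 gene correlated at 0.60 over 6 regions for Ndufs8, 0.77 for Atp5mc2 and 0.70 for Ndufa2, but at -0.062 for Cox5b, with a gap of up to 0.92 between its probes, at -0.38 for Cox8b, with a gap of up to 0.79, and at 0.26 for 1 of the pairs of Uqcrb. For Ndufc2 the correlation was 0.61, with a gap of up to 0.47. Probes of 1 gene could thus give different regional profiles, and the ranges above are those of the brightest probe.

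The promoters of the members were also read, since nuclear genes of the respiratory chain are known to share binding motifs of the factors NRF1, GABP and YY1. RefSeq promoters on build GRCr8, from 250 bases before to 50 after the start, matched 62 of the 71 members. For each of these members 1 promoter was read, while the background counted every promoter given, 33469 in all. The YY1 motif AANATGGCG was found on either strand in 13 of 62 members (21%), against 3.01% of all promoters. The first YY1 match began before the start only in Atp5pf (-111), Ndufs1 (-30) and Uqcrc1 (-1). In the other members with this motif it began 4 to 26 bases after the start. The NRF1 motif GCGCATGC was in 7 (11.3% against 2.47%) and the GABP motif CCGGAAGT in 6 (9.68% against 3.81%). At least 1 of the 3 was in 22 members (35.5% against 8.61%). The 4 upstream stretches below are examples of matches of the 3 motifs in members named above, with the match in capitals. They are Uqcrc1 (NRF1, chr8:118468158-118468217, plus strand), Atp5me (NRF1, chr14:1464758-1464817, plus), Uqcrh (GABP on the other strand, chr5:134790933-134790992, minus) and Ndufs1 (YY1 on the other strand, chr9:72073606-72073665, minus), all on GRCr8.
Uqcrc1: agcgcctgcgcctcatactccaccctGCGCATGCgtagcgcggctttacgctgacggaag
Atp5me: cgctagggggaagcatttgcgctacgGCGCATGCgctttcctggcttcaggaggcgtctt
Uqcrh: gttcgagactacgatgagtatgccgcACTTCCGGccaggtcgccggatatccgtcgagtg
Ndufs1: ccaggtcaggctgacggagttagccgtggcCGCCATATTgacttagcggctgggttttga
A match describes the sequence and is not evidence of binding. Dmac2l was among the 62, and none of the 3 motifs was found in its window.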

How the data were processed

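The deposited scanner files, 1 per array, came from Agilent Feature Extraction 9.5.3.1, per the file headers. They give each of 45018 spots a mean and a background intensity per dye, as deposited by the authors without normalization, and processed intensities and a log10 ratio of Cy5 to Cy3 after background subtraction, detrending and dye normalization by that software. The deposited value table of the series holds the same log10 ratios and was used as an alternative.

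From these, normexp background correction (offset 50) and loess within arrays were run with limma 3.58.1 in R 4.3.3, with control spots at weight 0 and without outlier-flagged spots. Values were averaged over the spots of a probe, ratios were turned to MK-801 over saline as log2 values, and 23467 genes or transcripts passed the filter. Names came from the RefSeq table of assembly GRCr8 (10852 of 41012 probes by accession, 5479 by symbol, 3695 by synonym), and other names are those of the files. A gene was read from its brightest probe, and a dye swap gave 1 value. Regional values were tested against 0 with limma (lmFit, eBayes) and Benjamini-Hochberg adjustment over all genes. Saline levels came from the saline dye after Aquantile normalization. The number of arrays limits the precision. Figures were drawn with matplotlib 3.10.9.

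Array numbers 1 to 4 fix dose and dye orientation in every region. Deviations of same-numbered arrays correlated in all 66 pairs of dye swaps (lowest 0.53, median 0.66). Same-numbered arrays share dye orientation, so a dye effect that recurs from array to array gives such a correlation too. The correlation therefore cannot show whether the numbers pair the arrays. A fit with the number as a replicate block was run as well.

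Genes named with values were those called, those at an unadjusted p under 0.05 over both doses, the highest and lowest mean of each complex at each dose, and the 2 widest and the narrowest saline ranges of each complex; other names were chosen after their values were seen. Members and gene lists were chosen with earlier results of these data known. The tests were checked on simulated data. An electrophysiological part of the study was not analysed here.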

Additional observations from a re-analysis of the deposited data

Results flagged for a closer look

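Of 66 sets of values (regional ratios of the members named by rule at each dose, medians of members by region, and medians over the 4 saline channels of a region), 2 held a value far from the others, where chance alone would mark about 1 set in 20. The high dose ratio of Cox8b in amygdala, 1.01, lay apart from the other regions by 0.669 of the whole range. The high dose ratio of Atp5me in hypothalamus, 0.0243, lay apart by 0.638 of the range, above 5 values that ran from -0.11 to -0.063. Ratios at the high and the low dose were compared for 62 members, and in none was the difference called by limma after adjustment, while 5 passed an unadjusted p under 0.05. Whether regions differ in their response was not tested, since a region has 1 value per dose.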

How the results depend on the processing

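The count of 1 member called over both doses was 0 without loess, where 1.44% of all genes were called. It was 0 within each of the 3 scan days (2 regions each), where 1.4%, 0.362% and 0.246% of all genes were called. The count of 1 at the low dose was 0 with the scanner's processed signals (1.36% of all genes called) and 0 with the deposited value table (1.36%). It was 0 without loess (1.5%) and 0 within each scan day (0.571%, 0.239% and 1.03%). Between doses, 1 member was called in place of 0 with probes above background on all 24 arrays (2.08% of all genes called). The count was also 1 with a trended and robust variance model (1.81%) and 1 with flagged spots kept (1.54%). Each time this was Ndufa12, which was also among the 23 and 19 called without array number 1 and 4 (25.1% and 23.1%). Leaving out a region in turn gave 0 to 1 calls over both doses (1.61% to 2.21% of all genes) and 0 at the high dose (1.27% to 1.77%). It gave 0 to 1 at the low dose (1.72% to 2.45%) and 0 between doses (1.05% to 1.34%). Leaving out an array number in turn, which leaves 1 dye orientation in a dose, gave 17 to 18, 0 to 30, 1 to 31 and 19 to 28 calls, when 15.9% to 20.4%, 2.11% to 32.2%, 2.61% to 35.6% and 23.1% to 32% of all genes were called. The Dmac2l low dose mean was -0.346 without replicate 3 and reversed to 0.0296 without replicate 4 (adjusted p = 0.631).

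The median of members over both doses was -0.0139 without loess and -0.0079 within the scan day of midbrain and amygdala, and -0.0126 to 0.0312 with an array number left out. At the high dose it was -0.0483 without loess, -0.00648 within that scan day and -0.0322 to 0.0581 with an array number left out, and at the low dose -0.0165 to 0.0393. The saline median in midbrain was 0.274 with median scaling and 0.214 with flagged spots kept, in amygdala -0.208 with scanner signals, in ventral striatum 0.107 with median scaling and 0.0987 with scanner signals, in cerebral cortex 0.0421 and -0.0743 in those settings and -0.0376 to 0.0272 with an array number left out, and in hippocampus -0.404 with median scaling. The causes were not tested.

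The fit with the array number as a replicate block called 1 member over both doses and 1 at the low dose. It called 0 at the high dose and 0 between doses, and so changed no call of a member. Of all genes it called 7.03% over both doses, 3.48% at the high dose, 4.3% at the low dose and 1.25% between doses. The main fit called 2.63%, 2.11%, 2.61% and 1.52% in that order. The setting with flagged spots kept was chosen after seeing the data. Of the values of single named genes under all settings, 605 kept their direction and side of the threshold or differed by less than their SD, 56 moved, 31 passed the threshold newly, 19 lost it and 1 reversed. With flagged spots kept, 70 members were tested over both doses against 62, and without the filter on dim probes 63 were.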

Other observations

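The regional profile of the members was also read in the RNA of treated rats, from the other dye of the same arrays. In RNA of the high dose the median over 65 members was 0.19 in midbrain, 0.14 in hypothalamus, -0.0050 in cerebral cortex, -0.012 in hippocampus, -0.046 in ventral striatum and -0.13 in amygdala. In RNA of the low dose, over 67 members, midbrain was at 0.23, hippocampus at -0.11 and amygdala at -0.12. By median, midbrain was thus highest and amygdala lowest in both. Hippocampus, among the lowest regions in saline RNA, had a median near the middle at the high dose. It was still lowest there for 18 of 65 members, the most of any region. At the low dose hippocampus was lowest for 24 of 67 members, as was amygdala. These channels share slides and arrays with the saline channels and give no independent test of the profile.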
